A study of Mus musculus with 8 samples.

Results

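The 38 genes described here encode the core machinery of autophagy and the receptors and transcription factors closest to it. They were chosen by symbol, from the starting kinase complex to the Atg8 family and its cargo receptors, and each symbol stood on exactly 1 of the 49585 gene rows. The data are bulk mRNA sequencing of whole pituitary from wild-type C57BL/6 mice kept under specific pathogen free conditions, in 4 libraries from young mice at 2–3 months and 4 from old mice at 18–24 months. No treatment or allele distinguished the groups. Labels number the samples from 1 within an age, and nothing states that each came from its own mouse, so p-values measure the spread between these libraries, which may be technical. Levels are FPKM (fragment counts corrected for exon length and for the size of the library), and libraries held 15042321 to 20429604 fragments.

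Autophagy is the route by which a cell wraps part of its cytoplasm in a double membrane, the autophagosome, and delivers it to the lysosome for breakdown. A kinase complex built on ULK1 starts the process, a lipid kinase complex built on VPS34 marks the membrane with phosphatidylinositol 3-phosphate (PI3P), and a pair of ubiquitin-like conjugation systems attach Atg8 proteins to the growing membrane, where receptors bring cargo to them. In endocrine cells the same lysosomes also break down surplus secretory granules. Much of the control lies in phosphorylation and protein turnover, which mRNA levels do not show.

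All 38 genes were expressed in every library and all passed the filter used for the test, 0.1 FPKM or more on average over the 8 libraries. Mean levels ran from 1.08 FPKM for Tfeb to 81.0 FPKM for Sqstm1. Of the 38, 3 genes (Sqstm1, Gabarapl1 and Gabarap) lay above 30 FPKM, 5 lay between 10 and 30, 28 between 2 and 10, and 2 (Tfeb and Atg4a) below 2 FPKM. The 8 genes above 10 FPKM were 4 of the 5 Atg8 family genes, the receptors Sqstm1, Nbr1 and Tax1bp1, and Atg13. Between libraries of one age the coefficient of variation had a median of 9.36% in young and 7.60% in old pituitary, and ranged from 1.42 to 23.2%. For the 33 genes whose FPKM could be turned back into whole fragments, 50 to 6015 fragments stood behind a value, which alone gives a coefficient of variation of 1.36 to 12.9%. The spread between libraries was above this counting error for 30 of the 33 genes in young and for 30 of the 33 in old pituitary. No fragment numbers are given for Atg101, Atg14, Atg10, Atg12 and Atg2b. In GENCODE M21, 13 of the 38 genes share exon bases with another gene, from 0.295 to 43.9% of their own, and shares above 10% are given beside the gene.

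**Figure D1:**
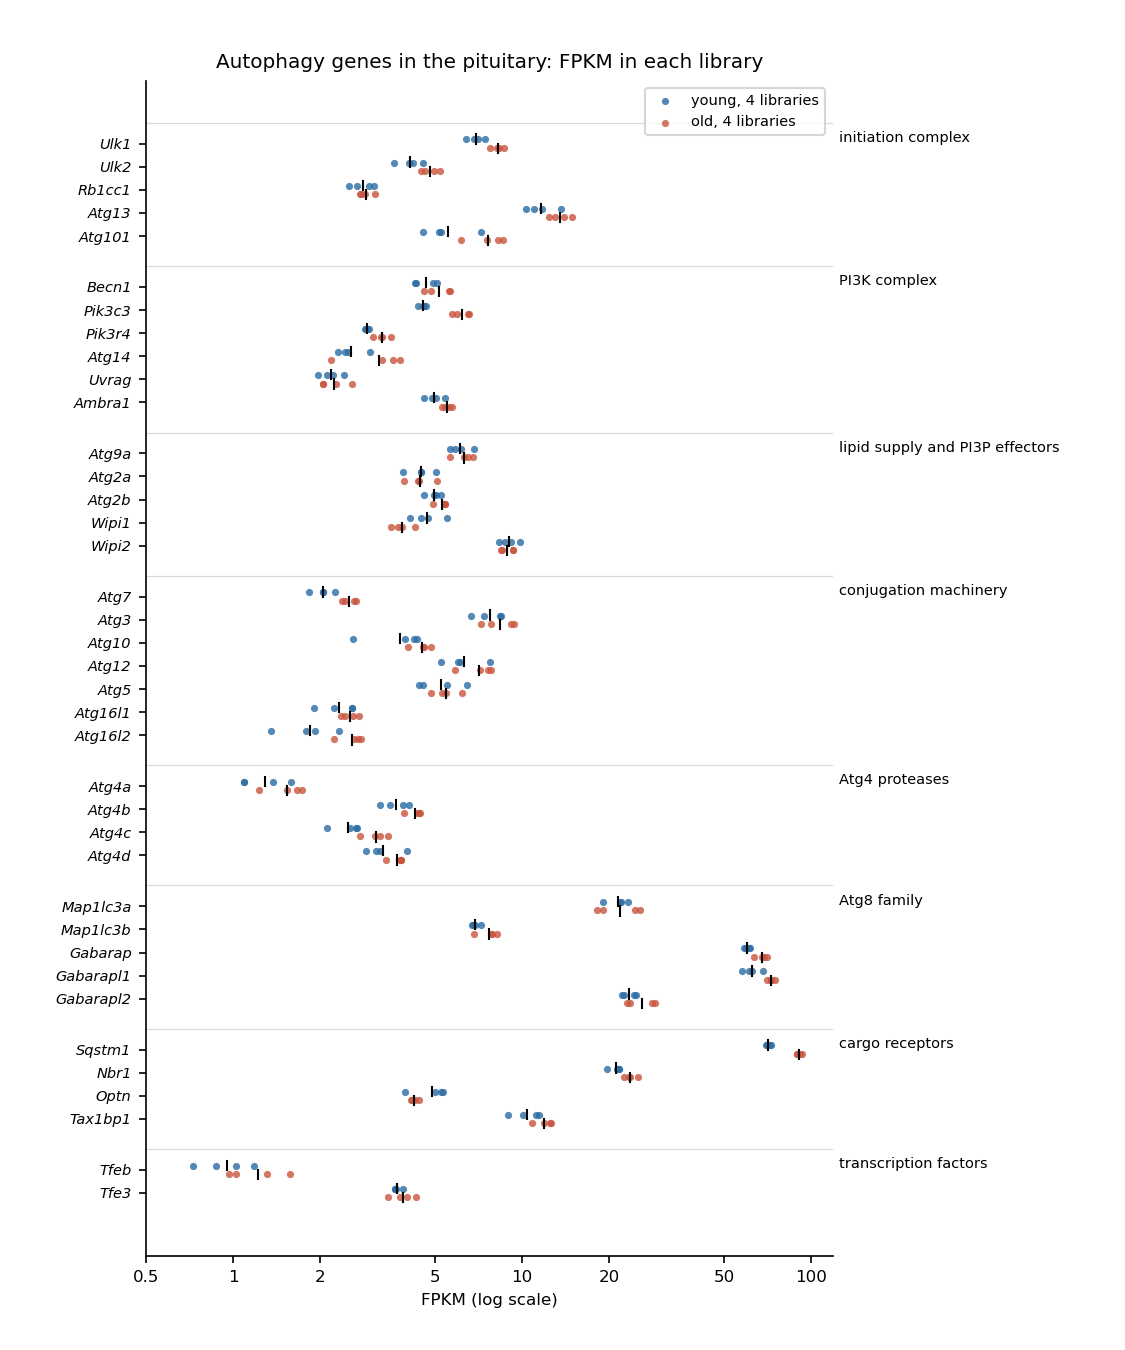
FPKM (horizontal axis, log scale) of each of the 38 autophagy genes, grouped by role, in the 4 young (blue) and 4 old (red) libraries, with a black tick at each group mean. Sqstm1, Gabarapl1 and Gabarap stand above 30 FPKM, most other genes lie between 2 and 10 FPKM, and the red and blue points of 29 of the 38 genes overlap.

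Differences between the ages were small for the autophagy genes, and their median was close to that of all genes. Of the 38, 1 gene passed the test, Pik3c3, which encodes the catalytic lipid kinase VPS34. It rose, and it makes up 2.63% of the genes, against 1.86% of the 23498 genes tested that were called higher in old pituitary. No autophagy gene was called lower, where 0.472% of all genes tested were. The test was limma on log2(FPKM + 0.1) with Benjamini-Hochberg adjustment over all genes tested, and a call needs an adjusted p under 0.05. At an unadjusted p under 0.05, 8 autophagy genes were higher in old pituitary (21.1%, against 18.0% of all genes) and 1 was lower (2.63%, against 3.79%). These shares are close to those of all genes. All 38 genes averaged above 1 FPKM, however, while the genes tested, here and below, reached down to 0.1 FPKM. In a separate fit of only the 14588 genes averaging 1 FPKM or more, 5.46% were called higher. In that fit 2 of the 38 genes were called, Pik3c3 and Sqstm1, both higher.

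The log2 fold change from young to old was above 0 for 34 of the 38 genes, with a median of 0.17. The median of all genes tested was 0.15, however, on the deposited scale, which divides by the total of the library, and 22 of the 38 lay above it and 16 below. When the libraries were scaled by the median of ratios instead, the median became 0.01 for all genes and 0.02 for the autophagy genes. On that scale 21 autophagy genes lay above 0 and 17 below, none was called (limma), and 5 had an unadjusted p under 0.05. The 95% intervals on the deposited scale reached from -0.55 at the lowest to 0.87 at the highest, so a log2 change of 1 lay above the interval of each of the 38 genes, and one of -1 below it. For genes of low level, the added 0.1 FPKM makes these fold changes too small.

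**Figure D2:**
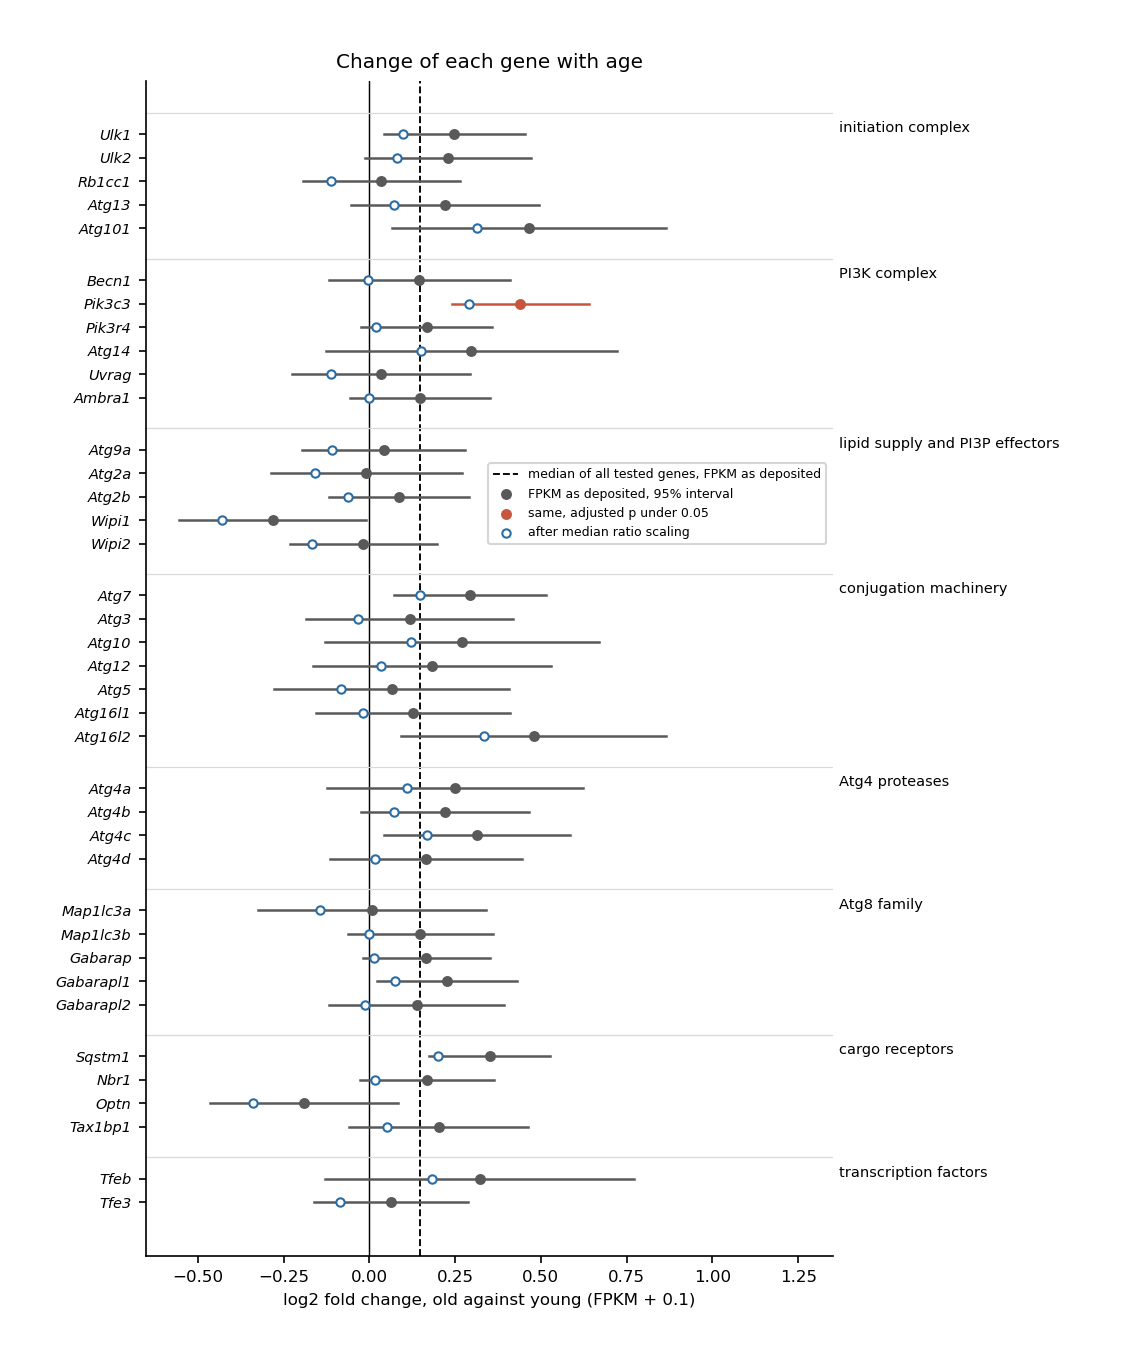
Log2 fold change from young to old (horizontal axis, on log2(FPKM + 0.1)) with its 95% interval for each autophagy gene, from FPKM as deposited (filled) and after median ratio scaling (open), with the median of all genes tested as a dashed line. Only Pik3c3 (red) passed the test, the filled points scatter around the dashed line at 0.15, and the open points scatter around 0.

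The same shift was seen library by library. Each gene was set against its own mean over the 8 libraries, and the median over the genes was taken. For the 38 autophagy genes this median was, in log2 units, -0.15, -0.13, -0.06 and 0.04 over the young libraries (replicates 1 to 4 in order) and 0.02, 0.11, 0.17 and 0.04 over the old libraries. Young replicate 4 thus lay above old replicate 1. For the 20206 genes tested that were above 0 in every library the medians were -0.14, -0.16, -0.02 and 0.05 in the young libraries and 0.01, 0.09, 0.15 and 0.10 in the old ones. The autophagy genes differed from all genes by -0.06 (old replicate 4) to 0.03 (old replicate 2). Old replicate 3 held the highest value of 20 of the 38 genes, and young replicate 1 the lowest value of 17.

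**Figure D3:**
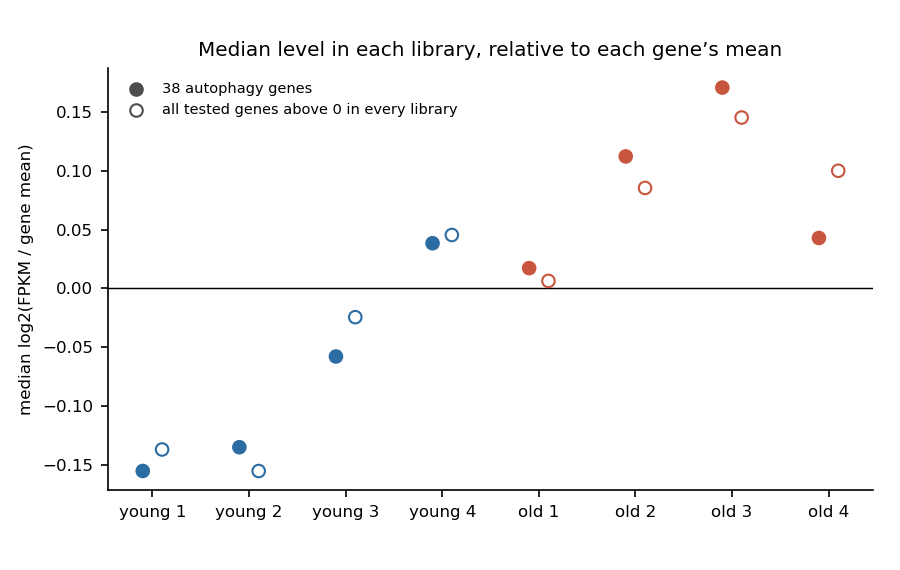
Median over genes of log2(FPKM / gene mean) in each of the 8 libraries (horizontal axis), for the 38 autophagy genes (filled) and for the 20206 genes tested that were above 0 in every library (open), young in blue and old in red. Filled and open points lie close together, and they differ by -0.06 to 0.03 in any library.

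For 9 of the 38 genes, every old library lay above every young one. These were Ulk1, Pik3c3, Pik3r4, Atg7, Atg4c, Gabarap, Gabarapl1, Sqstm1 and Nbr1. They make up 23.7% of the autophagy genes, against 13.4% of all genes tested, which include genes of lower level. For no autophagy gene did every old library lie below every young one, against 2.06% of all genes. After median ratio scaling 3 genes lay above (Pik3c3, Atg7 and Sqstm1, or 7.89%, against 5.65% of all genes), and 3 lay below (Wipi1, Wipi2 and Optn, or 7.89%, against 5.79%). On that scale 0.879% of all genes were called higher and 0.926% lower, and an unadjusted p under 0.05 was reached by 2 autophagy genes that were higher (5.26%, against 8.75% of all genes) and 3 that were lower (7.89%, against 8.51%).

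**Figure D4:**
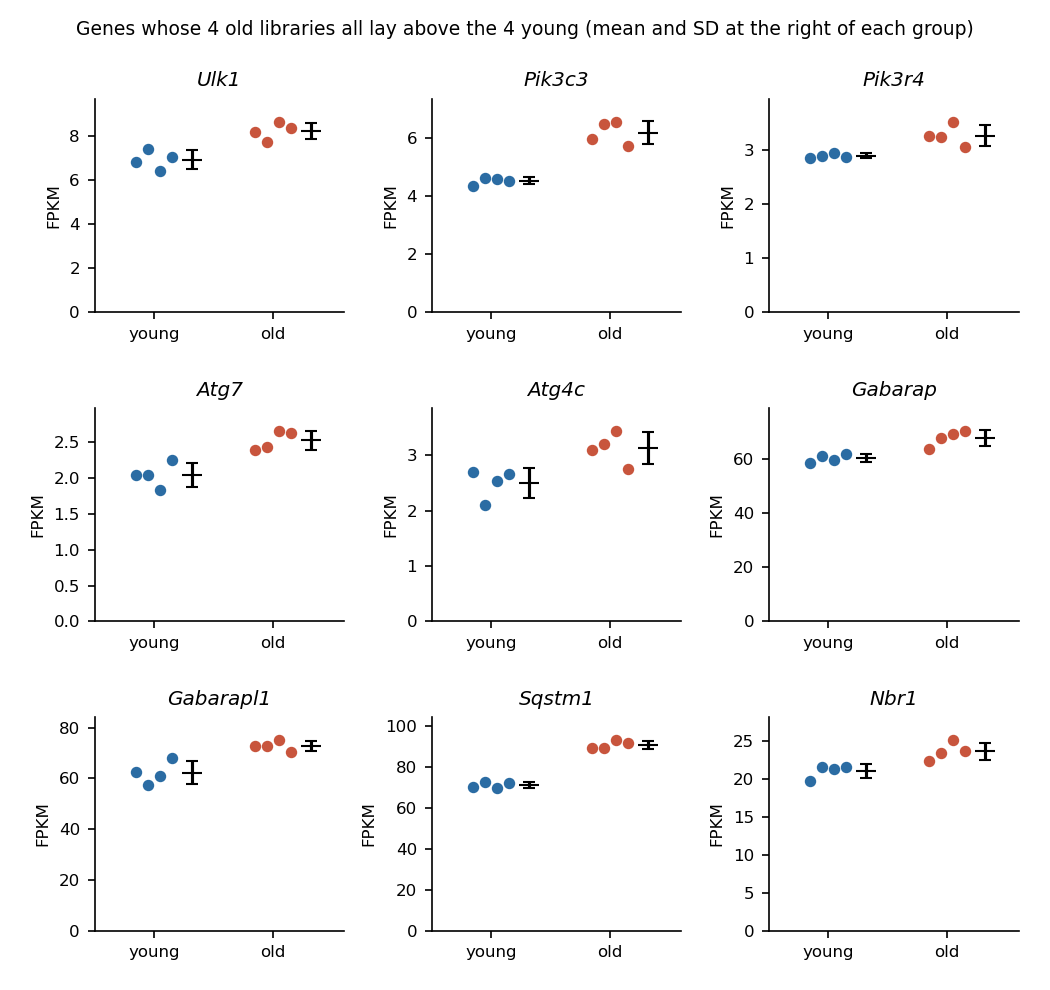
FPKM (vertical axes, from 0) of the 9 autophagy genes whose 4 old libraries all lay above the 4 young, each point 1 library, with the mean and SD to the right of each group. The separation is widest for Sqstm1 and Pik3c3 and narrow for Gabarapl1, Gabarap, Atg4c and Pik3r4.

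TFEB and TFE3 are related factors that move to the nucleus when the kinase mTORC1 is inactive and bind the CLEAR element, a short palindrome around CACGTG, in lysosomal and autophagy genes. Tfe3 was the higher of the pair. It stood at 3.66, 3.62, 3.63 and 3.87 FPKM in the young and at 3.42, 3.78, 4.29 and 3.99 FPKM in the old libraries, and the groups overlapped. Its log2 fold change was 0.06 (standard error, SE, 0.10, limma adjusted p = 0.74). Tfeb averaged 0.95 ± 0.19 FPKM (SD, n = 4) at the young age and 1.22 ± 0.28 FPKM (SD, n = 4) at the old age, the lowest level of the 38 genes, resting on 62 to 172 fragments per library. Its log2 fold change was 0.32 (SE 0.19, limma adjusted p = 0.37), with a 95% interval from -0.13 to 0.77.

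To show where the letters that these factors recognise stand beside autophagy genes, RefSeq windows from 250 bases before to 50 bases after a transcription start (GRCm38.p6) were searched for CACGTG, a palindrome that reads alike on both strands. Of the 38 genes, 32 had such a window, and Becn1, Pik3c3, Rb1cc1, Map1lc3a, Atg12 and Atg16l1 had none in the table. CACGTG was found in 4 of their 39 windows (10.3%), against 7.15% of all 32851 windows, in Atg7, Atg3, Atg5 and Atg14. The longer TCACGTGA, which contains it, was in 1 of the 39 windows (the match of Atg3 nearer to its start, 2.56%) against 0.974% of all. The 30 bases around each match follow, on the strand of the gene, with CACGTG in capitals.
Atg7, chr6:114670952-114670981, plus strand, first base of the match 132 bases before the start: catattggtggtCACGTGtgcagtaagtga
Atg3, chr16:45158723-45158752, plus strand, 94 bases before: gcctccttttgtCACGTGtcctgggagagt
Atg3, chr16:45158746-45158775, plus strand, 71 bases before: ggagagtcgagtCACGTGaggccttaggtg
Atg5, chr10:44268313-44268342, plus strand, 14 bases before: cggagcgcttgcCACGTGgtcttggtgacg
Atg14, chr14:47568418-47568447, minus strand, 1 base before: aaaacaaaatccCACGTGactggccctgag
The log2 fold changes of these 4 genes ran from 0.07 to 0.30 with a median of 0.21, and those of the 28 genes without a match from -0.28 to 0.48 with a median of 0.17. None of the 4 passed the test. The RefSeq starts of Atg3 and Atg5 lie within 44 bases of the GENCODE M21 start of the gene. That of Atg14 lies 2215 bases inside the gene, at the start of a shorter annotated transcript, and that of Atg7 lies 27999 bases inside, 9066 bases from the nearest annotated transcript start, so neither window covers the outermost start. A match of letters is not evidence of a bound site, and a window without one says nothing about the factor.

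ULK1 and ULK2 are the kinases that start autophagosome formation, held in a complex with the scaffold FIP200 (gene Rb1cc1), ATG13 and ATG101. None of the 5 genes passed the test, and their log2 fold changes ran from 0.04 (Rb1cc1) to 0.46 (Atg101) with a median of 0.23. Ulk1, on chromosome 5 from 110784488 to 110810097 (GRCm38, minus strand), stood at 6.80, 7.42, 6.40 and 7.04 FPKM in the young libraries and at 8.18, 7.74, 8.63 and 8.34 FPKM in the old ones. Every old library lay above every young one, by little at the nearest pair, and the log2 fold change was 0.25 (SE 0.09, limma adjusted p = 0.16). It was 0.10 once the libraries were scaled by median ratios, and the groups overlapped. Atg13, the most abundant of the 5, stood at 10.3, 13.6, 11.0 and 11.8 FPKM in the young libraries and at 13.0, 14.9, 14.0 and 12.4 FPKM in the old ones. Its groups overlapped, with young replicate 2 above 2 of the old libraries (log2 fold change 0.22, SE 0.12, limma adjusted p = 0.32). Atg101, which stabilises ATG13, averaged 5.54 ± 1.15 FPKM (SD, n = 4) at the young age and 7.63 ± 1.10 FPKM (SD, n = 4) at the old age. Its fold change of 0.46 came with a wide error (SE 0.17, limma adjusted p = 0.18), and young replicate 4, at 7.20 FPKM, lay above old replicate 4, at 6.14 FPKM.

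VPS34 (gene Pik3c3) makes PI3P, and works with the kinase-like subunit VPS15 (gene Pik3r4) and with Beclin 1 (gene Becn1). ATG14 directs this complex to sites where autophagosomes form, UVRAG to endosomes, and AMBRA1 links Beclin 1 to upstream signals. Pik3c3, on chromosome 18, stood at 4.35, 4.63, 4.57 and 4.53 FPKM in the young libraries and at 5.95, 6.47, 6.55 and 5.74 FPKM in the old ones. The young libraries lay close together and the old ones clearly above them. There were 311 to 417 fragments per young and 428 to 564 per old library. The young coefficient of variation, 2.66%, lay below the 5.29% that counting alone gives, so the young SD may be too small. Mean levels were 4.52 ± 0.12 FPKM and 6.18 ± 0.40 FPKM (SD, n = 4 each), a 1.37-fold difference. The log2 fold change was 0.44 (SE 0.09, 95% interval 0.24 to 0.64, limma adjusted p = 0.048), which is 0.29 above the median of all genes.

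The call for Pik3c3 sits at the threshold. Its log2 fold change after median ratio scaling was 0.29 (limma adjusted p = 0.14), and the groups still did not overlap. Without any single one of the 8 libraries the fold change stayed between 0.41 and 0.47, but the adjusted p ran from 0.069 to 0.13, so each library left out ended the call. Over all 18 alternatives the adjusted p ran from 0.022 to 0.54.

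None of the partners of VPS34 passed the test. For Pik3r4, too, the young coefficient of variation (1.42%) lay below that of counting (4.49%). Pik3r4 stood at 2.86, 2.90, 2.95 and 2.88 FPKM in the young and at 3.26, 3.24, 3.52 and 3.05 FPKM in the old libraries, with no overlap (log2 fold change 0.17, SE 0.08, limma adjusted p = 0.29), and the groups overlapped after median ratio scaling. Becn1 averaged 4.64 ± 0.43 FPKM (SD, n = 4) at the young age and 5.15 ± 0.52 FPKM (SD, n = 4) at the old age, but 43.9% of its annotated exon bases are shared with Cntd1 on the opposite strand. Atg14, at 2.19 FPKM, lay below all 4 young libraries in old replicate 4 and above all of them in the other 3 old libraries. Over the 6 genes of this complex the log2 fold changes ran from 0.03 (Uvrag) to 0.44 with a median of 0.16, and 3 of the 6 lay above the median of all genes. Uvrag shares 17.6% of its exon bases with Gm45187 on the opposite strand.

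ATG9A is the membrane protein that seeds the autophagosome, ATG2A and ATG2B carry lipids into it, and WIPI1 and WIPI2 bind PI3P, WIPI2 being the one that recruits ATG16L1. None of these 5 genes passed the test, and all 5 had a log2 fold change below the all-gene median, with their own median at -0.01. Wipi2, the most abundant, stood at 8.34, 8.70, 9.12 and 9.85 FPKM in the young and at 8.45, 9.30, 9.28 and 8.51 FPKM in the old libraries, and the groups overlapped fully (log2 fold change -0.02, SE 0.09, limma adjusted p = 0.93). Wipi1, singled out after its values were seen, had the lowest log2 fold change of the 38 genes, -0.28 (SE 0.12, limma adjusted p = 0.22). It stood at 4.10, 5.50, 4.72 and 4.48 FPKM in the young libraries and at 3.83, 4.26, 3.73 and 3.53 FPKM in the old ones, where old replicate 2 overlapped young replicate 1. After median ratio scaling the groups of Wipi1 no longer overlapped, with a log2 fold change of -0.43 (unadjusted p = 0.012, adjusted p = 0.16 from limma). On that scale Wipi2 also had every old library below every young one, at -0.17 (unadjusted p = 0.047, adjusted p = 0.28 from limma). Atg9a, Atg2a and Atg2b ranged from -0.01 to 0.09, and 32.6% of the exon bases of Atg9a are shared with other annotated genes.

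ATG7 is the activating enzyme of both ubiquitin-like systems, ATG3 and ATG10 are the conjugating enzymes, and ATG12 is joined to ATG5, which with ATG16L1 directs Atg8 proteins to the membrane. None of the 7 genes passed the test, and their log2 fold changes ran from 0.07 (Atg5) to 0.48 (Atg16l2) with a median of 0.18. Atg7 stood at 2.05, 2.04, 1.83 and 2.24 FPKM in the young and at 2.38, 2.43, 2.65 and 2.62 FPKM in the old libraries. Its groups did not overlap on either scale (log2 fold change 0.29, SE 0.10, limma adjusted p = 0.14, and 0.15 after median ratio scaling, adjusted p = 0.43). Atg3, the most abundant of the 7 and a bearer of the CACGTG letters shown above, stood at 6.66, 7.36, 8.41 and 8.43 FPKM in the young and at 7.80, 7.22, 9.39 and 9.14 FPKM in the old libraries. These overlapped broadly (log2 fold change 0.12, SE 0.13, limma adjusted p = 0.63). Atg16l2, a relative of Atg16l1, had the largest log2 fold change of the 38 genes (0.48, SE 0.17, limma adjusted p = 0.16) although its level was only 1.85 ± 0.40 FPKM when young and 2.58 ± 0.24 FPKM when old (SD, n = 4). Young replicate 4, at 2.33 FPKM, was above old replicate 3, at 2.23 FPKM, so the groups overlapped.

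The ATG4 proteins trim new Atg8 proteins so that they can be conjugated, and release them again from the membrane. All 4 genes lay above the all-gene median, with log2 fold changes from 0.16 (Atg4d) to 0.31 (Atg4c), and none passed the test. Atg4b, the most abundant, stood at 3.48, 3.21, 4.07 and 3.86 FPKM in the young and at 4.40, 3.90, 4.43 and 4.32 FPKM in the old libraries. Young replicate 3 lay above old replicate 2 (log2 fold change 0.22, SE 0.11, limma adjusted p = 0.27). Atg4c stood at 2.69, 2.10, 2.53 and 2.66 FPKM in the young and at 3.10, 3.21, 3.44 and 2.75 FPKM in the old libraries, with no overlap but only a small gap between young replicate 1 and old replicate 4 (log2 fold change 0.31, SE 0.12, limma adjusted p = 0.18). Atg4a rested on 50 to 82 fragments per library, the fewest of the 33 genes with fragments, and had a SE of 0.16. Atg4d shares 19.3% of its exon bases with Kri1 on the opposite strand.

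The small ubiquitin-like proteins of the Atg8 family coat the autophagosome and bind the receptors. MAP1LC3A and MAP1LC3B belong to the LC3 branch, and GABARAP, GABARAPL1 and GABARAPL2 to the GABARAP branch. Per length of annotated exons, Gabarapl1 and Gabarap led in young pituitary. They held 35.7 ± 1.1% and 34.5 ± 1.5% of the FPKM summed over the 5 genes (SD, n = 4 each). Gabarapl2 held 13.5%, Map1lc3a 12.3% and Map1lc3b 3.95%. These shares depend on the annotated exon length, which is 7517 bases for Map1lc3b and 1181 for Map1lc3a. In fragments Map1lc3b lay above Map1lc3a, at 755 to 1136 against 338 to 581 per library. In old pituitary the shares were 37.2 ± 1.8% for Gabarapl1, 34.5 ± 0.87% for Gabarap, 13.2% for Gabarapl2, 11.1% for Map1lc3a and 3.92% for Map1lc3b. The order of the means was the same at both ages, and the shares of the leading pair overlapped over the 8 libraries (33.3 to 36.6% for Gabarap and 34.5 to 39.3% for Gabarapl1).

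None of the 5 passed the test, and their log2 fold changes ran from 0.01 (Map1lc3a) to 0.23 (Gabarapl1) with a median of 0.15, beside 0.15 for all genes. Gabarapl1, on chromosome 6 from 129533160 to 129542346 (GRCm38, plus strand), stood at 62.5, 57.5, 60.8 and 68.2 FPKM in the young and at 72.8, 72.7, 75.1 and 70.3 FPKM in the old libraries. The groups did not overlap (log2 fold change 0.23, SE 0.09, limma adjusted p = 0.19), and did overlap after median ratio scaling, where the fold change was 0.08. A stretch of 28.3% of its exon bases is shared with 1700101I11Rik on the opposite strand. Gabarap, on chromosome 11 from 69991143 to 69994951 (plus strand), stood at 58.4, 61.1, 59.4 and 61.5 FPKM in the young and at 63.5, 67.6, 68.9 and 70.1 FPKM in the old libraries (log2 fold change 0.17, SE 0.08, limma adjusted p = 0.28). Map1lc3a was the most uneven of the family in old pituitary, at 18.1 and 19.1 FPKM in old replicates 1 and 2 and 25.5 and 24.5 FPKM in old replicates 3 and 4, around a young mean of 21.5 ± 1.8 FPKM (SD, n = 4).

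p62 (gene Sqstm1) and NBR1 bind ubiquitinated cargo and Atg8 proteins at once, and OPTN and TAX1BP1 do the same for damaged mitochondria, bacteria and protein aggregates. p62 is itself broken down by autophagy, so its protein level, which was not measured here, can differ from its mRNA. Sqstm1, on chromosome 11 from 50199366 to 50210827 (GRCm38, minus strand), stood at 70.2, 72.5, 69.8 and 72.1 FPKM in the young and at 89.0, 89.2, 93.0 and 91.8 FPKM in the old libraries, on 3661 to 6015 fragments. Both groups were tight and lay well apart, with means of 71.2 ± 1.3 FPKM and 90.7 ± 2.0 FPKM (SD, n = 4 each), a 1.28-fold difference. The log2 fold change was 0.35 (SE 0.08, 95% interval 0.17 to 0.53), and the adjusted p was 0.059 from limma, just short of the threshold.

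When only the 14588 genes averaging 1 FPKM or more were tested, Sqstm1 passed beside Pik3c3 (adjusted p = 0.028 and 0.022 from limma), and 5.46% of all genes were then called higher and 0.843% lower. After median ratio scaling its log2 fold change was 0.20 with an adjusted p of 0.26, and over all 18 alternatives the adjusted p ran from 0.024 to 0.74. Of its exon bases, 17.3% are shared with Mrnip on the opposite strand. Whether the counting used strand is not stated in the sources used here, so how fragments from these shared bases were counted is not known.

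Nbr1 stood at 19.7, 21.6, 21.3 and 21.6 FPKM in the young and at 22.4, 23.4, 25.1 and 23.7 FPKM in the old libraries, with no overlap (log2 fold change 0.17, SE 0.08, limma adjusted p = 0.29), close to the median of all genes. Optn went the other way in value, at 4.87 ± 0.65 FPKM when young and 4.23 ± 0.13 FPKM when old (SD, n = 4). Its log2 fold change was -0.19 (SE 0.12, limma adjusted p = 0.38), and young replicate 2, at 3.91 FPKM, lay below all 4 old libraries. After median ratio scaling the groups of Optn did not overlap (log2 fold change -0.34, unadjusted p = 0.010, adjusted p = 0.15 from limma). Tax1bp1 was at 10.4 ± 1.2 FPKM when young and 11.9 ± 0.83 FPKM when old (SD, n = 4, limma adjusted p = 0.33).

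A ratio of 2 related genes within a library does not depend on how the library was scaled, so 7 such pairs were compared between the ages. In young pituitary Tfe3 exceeded Tfeb by a mean log2 ratio of FPKM of 1.98, and Map1lc3a exceeded Map1lc3b by 1.64. Gabarapl1 exceeded Gabarapl2 by 1.41 and Ulk1 exceeded Ulk2 by 0.76, while Wipi1 lay below Wipi2 by a log2 ratio of -0.94. The size of such a ratio depends on the exon lengths, and in fragments Map1lc3b lay above Map1lc3a. No pair passed the test between the ages after adjustment over the 7 pairs (exact permutation test, two-sided, where 4 libraries against 4 cannot give a p below 0.029). At that floor a single pair would have an adjusted p of 0.20, and 5 of the 7 pairs would have to reach it to pass, so the lack of calls does not show that the ratios were alike. The smallest p was that of Wipi1 to Wipi2, whose mean log2 ratio was -0.94 ± 0.20 when young and -1.21 ± 0.09 when old (SD, n = 4, exact p = 0.057, adjusted p = 0.30). Atg16l1 to Atg16l2 came next, at 0.34 ± 0.29 when young and -0.03 ± 0.21 when old (exact p = 0.086, adjusted p = 0.30). The other 5 pairs had exact p-values from 0.17 to 0.91.

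**Figure D5:**
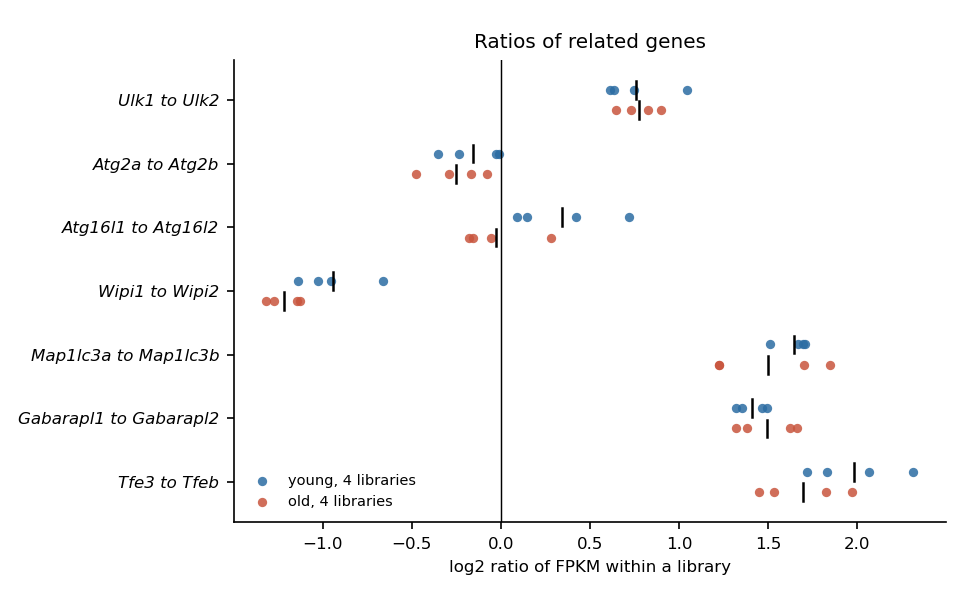
Log2 ratio of the FPKM of 2 related genes within each library (horizontal axis), young in blue and old in red, with a black tick at each group mean. Points of the 2 ages overlap in all 7 pairs, with the least overlap for Wipi1 to Wipi2.

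Other genes of the pathway were counted in 4 lists. Of 22 tested genes for autophagosome formation and fusion beyond the 38, 1 passed the test (4.55%, against 1.86% of all genes) and 6 had an unadjusted p under 0.05 (27.3%, against 18.0% of all genes), all higher in old pituitary, with a list median of 0.13. The gene that passed was Wdr45, which encodes WIPI4, a PI3P binder and partner of ATG2. It stood at 3.51, 3.60, 3.15 and 4.00 FPKM in the young and at 5.89, 5.83, 5.42 and 4.72 FPKM in the old libraries, without overlap. It rose by a log2 fold change of 0.60 (SE 0.12, limma adjusted p = 0.045), and the adjusted p was 0.12 after median ratio scaling.

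Of 40 upstream regulators around mTORC1 and AMPK, the kinases that hold autophagy back and release it, 1 passed the test, Sesn2, whose product Sestrin 2 restrains mTORC1 under stress and amino acid shortage. It stood at 2.14, 2.31, 2.41 and 2.55 FPKM in the young and at 3.65, 4.31, 5.47 and 3.44 FPKM in the old libraries, without overlap. It rose by a log2 fold change of 0.79 (SE 0.16, limma adjusted p = 0.048), and the adjusted p was 0.064 after median ratio scaling. The median of this list was 0.11, and 10 of the 40 (25%, against 18.0% of all genes) were higher at an unadjusted p under 0.05. Lower at that p was 1 gene, Trp53inp2, whose product takes part in autophagosome formation (log2 fold change -0.59, SE 0.20, limma adjusted p = 0.15). Neither Wdr45 nor Sesn2 passed the test in any of the 8 fits that left out 1 library.

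None of the 20 other selective autophagy receptors passed the test (limma), although 7 had an unadjusted p under 0.05 (35%, against 18.0% of all genes), all higher in old pituitary, and the list median was 0.19. Pink1, the kinase that flags damaged mitochondria, was at 33.7 ± 2.5 FPKM when young and 42.6 ± 1.8 FPKM when old (SD, n = 4, limma adjusted p = 0.095). Sec62, a receptor for endoplasmic reticulum, was at 38.5 ± 3.3 and 37.2 ± 1.4 FPKM (adjusted p = 0.80 from limma). Of 20 tested lysosomal genes with CLEAR elements, the textbook targets of TFEB and TFE3, none passed the test (limma), 5 had an unadjusted p under 0.05 (25%, against the same 18.0%), all higher, and the median was 0.13. Psap, the precursor of the saposins, was at 219 ± 35 FPKM when young and 277 ± 22 FPKM when old (limma adjusted p = 0.20), and Lamp1, a lysosomal membrane protein, at 97.4 ± 11 and 101 ± 2.8 FPKM (adjusted p = 0.76 from limma). After median ratio scaling the medians of the 4 lists lay between -0.04 and 0.05. On that scale an unadjusted p under 0.05 was reached by 2 receptors that were higher and 3 that were lower, by 1 and 3 of the formation and fusion genes, by 3 and 3 of the upstream regulators and by 0 and 0 of the lysosomal genes, against 8.75% and 8.51% of all genes.

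The samples are whole glands, so fewer cells of a type and less RNA per cell cannot be told apart. Markers of other cells moved with age beside these values. Of 13 tested macrophage markers 2 passed the test as higher and none as lower, with a median log2 fold change of 0.91, and the sum of all 14 ran from 39.8 to 69.3 FPKM over the young and from 88.7 to 117 FPKM over the old libraries. The sum of 10 B and plasma cell markers ran from 5.93 to 8.23 FPKM and from 33.0 to 52.0 FPKM, in the same order, with 3 of 6 tested called higher. Most of this sum in old pituitary was Igkc and Igha, the immunoglobulin genes of plasma cells (24.8 ± 5.3 and 8.31 ± 2.81 FPKM, SD, n = 4). Cd79b and Sdc1 of the same list had every old library below every young one (log2 fold changes -0.70 and -0.66, limma adjusted p = 0.067 and 0.12), and Cd79b was called lower after median ratio scaling (limma adjusted p = 0.033). The sum of 10 T and NK cell markers ran from 0.661 to 1.74 and from 1.94 to 2.34 FPKM. Only 3 of the 10 were tested, the others averaging under 0.1 FPKM, and none was called. Of the tested markers, Nkg7 was higher at an unadjusted p of 0.021 (limma). The means of Klrb1c and Gzma were lower in old pituitary, and those of the other markers higher. The growth hormone and prolactin cell markers summed to between 133264 and 155495 FPKM when young and to between 96265 and 126290 FPKM when old. Gh was called lower, with means of 62323 and 24327 FPKM, whereas Prl stood at 82116 and 83140 FPKM (log2 fold change 0.01). Pou1f1 also changed little (log2 fold change -0.03), and Ghrhr had every old library below every young one. Other hormone cell markers summed to 2654 to 5500 and 3540 to 5157 FPKM, with 2 of 8, Lhb and Gnrhr, called lower. Mesenchymal, endothelial and stem cell markers overlapped between the ages in their sums, as did blood and muscle markers, and 2 collagen genes were called lower. Blood markers varied widely within each age, with sums from 13.0 to 110 FPKM over the young and from 15.9 to 124 FPKM over the old libraries. The stem cell list held both directions, with 2 of 6 higher (Lcn2 and Krt8) and 2 lower (Sox2 and Cdh26) at an unadjusted p under 0.05 (limma). Sox2 and Cdh26 had every old library below every young one, and were called lower after median ratio scaling (limma adjusted p = 0.044 and 0.018). Pdgfra, a mesenchymal marker, also had every old library below every young one (limma adjusted p = 0.076). Posterior lobe glia markers summed to between 6.19 and 6.79 FPKM when young and to between 7.20 and 9.41 FPKM when old. Most of that sum was Mbp, a myelin gene, which was called higher (log2 fold change 0.44, limma adjusted p = 0.048), whereas Aqp4, a water channel of glia, had every old library below every young one (log2 fold change -0.47, limma adjusted p = 0.10, and 0.034 after median ratio scaling). The sex of the mice is not given in the labels. Xist was present and the 4 Y-linked genes were at 0 in all 8 libraries. The part of these shifts in the values of the autophagy genes was not tested.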

How the data were processed

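Whole pituitary of 4 young and 4 old samples was profiled by bulk mRNA sequencing. The authors aligned reads with STAR (version 2.6.1a) to GRCm38, counted paired-end fragments over Ensembl exons with featureCounts, computed FPKM with edgeR (version 3.28.1), and deposited only these FPKM, 1 list per library. For the annotation's release and the strand setting, values were not stated in the sources used here.

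The 38 genes, the gene lists and the tests were chosen with earlier results of these data known. Limma (version 3.58.1, R 4.3.3) was fitted to log2(FPKM + 0.1) of the 23498 genes that averaged 0.1 FPKM or more. Trend and robust were off, and Benjamini-Hochberg adjustment was over all these genes. A run on simulated data checked only the median estimates of planted changes, which were larger than those of the autophagy genes. It does not show how reliably changes of their size are called. The study's own test used counts, which FPKM are not, and normalized them by the trimmed mean of M-values. The main fit here took FPKM as deposited, with no further scaling. Fragments were computed back from FPKM with GENCODE M21 exon lengths (91.3 to 92.0% of low values whole within 0.01). A count of 0 allows up to 3 fragments (0.147 to 0.199 CPM), and floors cover counting error only. Levels per library are given for genes that passed the test, whose ages did not overlap, or that led their role. Same-numbered libraries did not deviate together (correlations -0.09 to 0.06), so they were not paired. The labels name no batch. Alternatives were 4 other scalings (1 added after seeing the data), pseudocounts of 1 and 0.01, other filters, a variance trend, the replicate block and each library left out. Promoter windows are from RefSeq (GRCm38.p6), and gene positions from GENCODE M21. Tables and plots were made in Python 3.11.15 (pandas 2.3.3, numpy 2.4.6, matplotlib 3.10.9), and permutation tests were checked against scipy 1.17.1.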

Additional observations from a re-analysis of the deposited data

Results flagged for a closer look

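In each group of 4 libraries, the highest or lowest library was looked at for a gap to its neighbour that exceeds, as a share of the group's range, Dixon's 95% critical value. This was done for 90 groups, the 38 autophagy genes and 7 ratios at both ages, and 4 stood out, where chance gives about 1 in 20. Atg2b, a lipid carrier, was at 4.90 FPKM in old replicate 1 and at 5.35 to 5.40 FPKM in the other old libraries. Atg4d was at 3.37 FPKM in the same library, beside 3.79 to 3.82 FPKM. Nbr1 was at 19.7 FPKM in young replicate 1, beside 21.3 to 21.6 FPKM. Tfe3 was at 3.87 FPKM in young replicate 4, beside 3.62 to 3.66 FPKM. Each departure is small in FPKM, and the other 3 libraries of the group happened to lie close together. The lower Nbr1 value widens the gap between its ages, and the higher Tfe3 value narrows it.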

How the results depend on the processing

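Leaving out any 1 of the 8 libraries gave 0 calls among the 38 genes and 0 in the pathway lists (main values 1 and 2), as did scaling by the median of ratios, by the upper quartile, by the FPKM sum or the fragment total without hormone and ribosomal RNA repeat genes, and no minimum, all by limma, with 1 to 10 autophagy genes at an unadjusted p under 0.05. A pseudocount of 1, a minimum of 1 FPKM, and the variance trend gave 2 autophagy genes each, Pik3c3 and Sqstm1, and 3, 5 and 5 in the lists. A pseudocount of 0.01 gave 1 (Pik3c3) and 0. With the replicate number as a block there were 0 and 0 calls, and 4 among all genes, while not every library correlated best with the one of its own number. The median log2 fold change of the autophagy genes was 0.17, and 0.0172, 0.0195, 0.0169 and 0.0328 under the 4 scalings in that order. Its distance from the median of all genes was 0.02, and 0.01 to 0.05 under the alternatives. Genes with every old library above every young numbered 9, and 3, 3, 0 and 3 under the 4 scalings, and genes with every old library below numbered 0, and 3, 3, 1 and 2. The exact test of the paralogue ratios could pass only with 5 of 7 pairs at its floor, so it says nothing about their stability, and the log2 ratio difference of Ulk1 to Ulk2 (0.017) went from -0.032 to 0.11 without single libraries. The cause of these differences was not tested.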
